A study of Homo sapiens with 23 samples.

Results

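The cytosolic ribosomal protein genes, 80 of the 28395 genes counted, were followed across 4 human multiple myeloma cell lines in which the transcription factor IRF4 was targeted by CRISPR. They were chosen by symbol (RPL or RPS with a number, RPLP0, RPLP1, RPLP2 and RPSA), leaving out Y-linked genes, RPS27L and pseudogenes, and by at least 10 counts in every library. The members comprised 49 proteins of the large subunit and 31 of the small subunit. All 80 passed the filter on low counts and were tested among 16468 genes. The name rule before these exclusions matched 86 genes. Just inside the count limit were RPL21, with at least 15 counts in every library, RPS26 with 20 and RPS27 with 26. Just outside it were RPL36A with a minimum of 9 counts, RPL10L with 0, and RPL3L, which never exceeded 1.

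H929, MM1S, OPM2 and RPMI-8226 are established lines of malignant plasma cells. Each carried either the guide RNA labelled Irf4 sgRNA (here the IRF4 guide) or the one labelled EV sgRNA (here the EV guide, the control), a name the labels do not explain. Doxycycline was given to all cells of both arms during 48 hours to switch on the guide. There were 3 libraries per line and guide, but for the MM1S EV group, which had 2 (labelled replicates 2 and 3). A single IRF4 guide and time point were used, and nothing in the labels said whether replicates were separate cultures, so p-values cover only the differences among these samples, which may be technical.

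A ribosome joins a small subunit, which reads the mRNA, to a large subunit, which forms the peptide bonds. Each subunit is built in the nucleolus from ribosomal RNA and one copy of nearly every ribosomal protein, so the proteins are needed in matched amounts. Their mRNAs are among the most abundant in a dividing cell and share a terminal oligopyrimidine (TOP) start, a C at the cap followed by an unbroken run of C and T. Through it, mTOR and LARP1 control their translation together. MYC promotes the making of ribosomes, and plasma cells are specialised in protein secretion.

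The TOP start was read in the RefSeq promoter table (GRCh38.p14), which held 64 of the 80 members. Of these, 46 (71.9%) had a start at which the first base was C followed by at least 4 C or T, against 1404 of all 27305 genes in the table (5.14%). Below are 30-base windows, 10 bases before the annotated start and 20 from it, with the pyrimidine run that begins with C at the start in capitals. They are shown for members with the largest rises and falls on the average of the 4 lines, so that the start can be set beside the direction. The members that rose on the average come before those that fell.
RPL13A (chr19:49487598-49487627, plus strand): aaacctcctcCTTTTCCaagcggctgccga
RPL28 (chr19:55385922-55385951, plus strand): cctcgccttcCTCTTTCCgtctcaggtcgc
RPL3 (chr22:39319604-39319633, minus strand): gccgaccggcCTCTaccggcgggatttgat
RPS27 (chr1:153990752-153990781, plus strand): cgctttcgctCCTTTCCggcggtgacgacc
RPS28 (chr19:8321486-8321515, plus strand): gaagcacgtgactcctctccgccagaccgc
RPL12 (chr9:127451387-127451416, minus strand): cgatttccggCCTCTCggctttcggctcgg
RPL22L1 (chr3:170870176-170870205, minus strand): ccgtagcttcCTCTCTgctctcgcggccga
RPL41 (chr12:56116623-56116652, plus strand): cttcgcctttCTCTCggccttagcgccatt
RPL7L1 (chr6:42879606-42879635, plus strand): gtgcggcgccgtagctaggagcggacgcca
RPS26 (chr12:56041908-56041937, plus strand): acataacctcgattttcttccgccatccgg

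A TOP start was therefore present among members that rose on the average (RPL13A, RPL28, RPS27, RPL12) and among members that fell (RPL22L1, RPL41). RPL17 and RPL26L1, not printed, also fell and had none by this rule. Of the 46 members with a TOP start 18 rose and 2 fell on the average, and of the 18 without one 8 rose and 4 fell. Falls in single lines numbered 5 and 6 in these 2 groups in H929, 1 and 3 in OPM2, and 3 and 6 in RPMI-8226. Of all genes, 32.6% rose and 25.1% fell on the average, and no test of the split was run. Among the single lines RPS27 and RPL12 rose in MM1S alone. The annotated start of RPS28, RPL7L1 and RPS26 was not a C, and in RPL3 the run had 4 letters, 1 too few for the rule. The rule reads the annotated start only. In RPS28 and RPS26 a run of C and T begins shortly after it, so members without a TOP start by this rule may still have one. Over the 300 bases around the start (250 before, 50 after, both strands), the ETS site CGGAAG was found in 40 of 64 members (62.5%) and 22.6% of all genes. The MYC and MAX E-box CACGTG was found in 5 members (7.81%) and 8.77% of all genes. The ETS-IRF composite element (GGAA, any 2 bases, GAAA), a form IRF4 is known to bind with a partner, was found in 5 members (7.81%) and 3.47% of all genes. These are matches of letters, not binding sites.

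Library totals ran from 6907390 to 28486960 counts. Levels are given as TMM-scaled counts relative to library size (CPM). The mean level of IRF4 was lower with the IRF4 guide in every line. In H929 it was 736 ± 142 CPM against 2200 ± 19.1 CPM with the EV guide (SD, n = 3 here and below unless given), and in MM1S 265 ± 32.3 against 683 ± 58.6 CPM (n = 2). The OPM2 means were 1040 ± 252 and 1640 ± 361 CPM, and those of RPMI-8226 were 210 ± 34.7 and 451 ± 37.7 CPM. The groups did not overlap in any line except OPM2, where 1 IRF4 guide library (1330 CPM) reached the lowest EV library (1320 CPM). All 8 plasma cell markers listed were detected in every line, with SLAMF7 at 0.782 to 2.49 CPM in RPMI-8226. Summed markers of myeloid cells (at most 36.9 CPM) and of erythroid cells and megakaryocytes (at most 3.62 CPM) stayed low. Those of T and NK cells reached 297 CPM and those of stromal and epithelial cells 242 CPM. NCAM1 reached 235 CPM in H929, 117 CPM in OPM2 and 218 CPM in RPMI-8226, CD3E 119 CPM in H929, and EPCAM and KRT18 124 and 119 CPM in RPMI-8226, while CD3D stayed at or below 1.12 CPM in all libraries.

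Ribosomal protein genes took 2.87 to 5.29% of all counts in a library. In MM1S their share was 5.10%, 4.72% and 4.68% with the IRF4 guide and 2.87% and 3.19% with the EV guide, a ratio of the means of 1.6. The MM1S groups did not overlap, and the 2 EV libraries held the lowest shares of the 23 libraries. In H929 the share was 5.29%, 4.39% and 5.04% with the IRF4 guide and 5.21%, 4.44% and 5.02% with the EV guide. In OPM2 it was 4.69%, 3.84% and 4.07% against 4.04%, 3.38% and 3.70%, and in RPMI-8226 4.13%, 3.35% and 3.53% against 4.04%, 3.75% and 3.75%. The groups overlapped in H929, OPM2 and RPMI-8226. A share of counts is relative: less ribosomal protein mRNA per cell and fewer cells with much of it cannot be told apart in such bulk libraries.

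**Figure D1:**
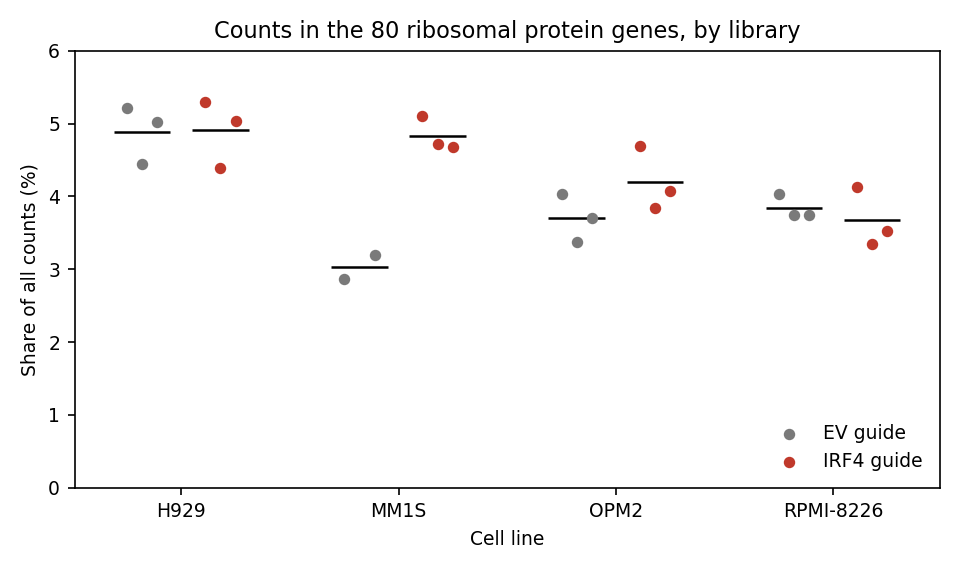
Share of all counts (%, y axis) taken by the 80 ribosomal protein genes in each library (points), by cell line (x axis) and guide, with the group mean as a line. The MM1S EV libraries sit at 2.87 and 3.19% and the MM1S libraries with the IRF4 guide at 4.68 to 5.10%, while the guides overlap in the other 3 lines.

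In MM1S nearly the whole family rose with the IRF4 guide. By edgeR's quasi-likelihood test with Benjamini-Hochberg adjustment over all tested genes (called at an adjusted p under 0.05), 65 of 80 members rose and 1, RPL39L, fell. Of all genes tested 19.4% rose and 15.2% fell in this line. The median log2 fold change (IRF4 guide over EV guide) was 0.67 (1.59-fold) for the members, with an interquartile range of 0.57 to 0.78, and 0.07 for all genes. In 70 members each library with the IRF4 guide lay above both EV libraries, and in 1 each lay below, against 31.4% and 24% of all genes. Without EV replicate 2 the count of rising members was 42 and the median 0.60. Without EV replicate 3 these were 55 and 0.78, and with every library thinned to 6907390 counts, 65 and 0.66.

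The largest rises in MM1S were in RPL13A, RPS27 and RPS21. RPL13A, a large-subunit protein also known for silencing translation of inflammatory mRNAs, lies at chr19:49487608-49492308 (GRCh38.p14, as for the coordinates below). Its level was 1080, 1050 and 1060 CPM with the IRF4 guide and 391 and 451 CPM with the EV guide. The groups were far apart, and the log2 fold change was 1.34 (SE 0.15, edgeR adjusted p = 4.95e-07). RPS27 was at 10.5, 10 and 5.82 CPM against 4.28 and 4.24 CPM, a log2 fold change of 1.10 (SE 0.30, edgeR adjusted p = 0.00488). RPS27 is a zinc-finger protein of the small subunit. RPS21, a small-subunit protein, was at 311, 230 and 204 CPM against 107 and 129 CPM, a log2 fold change of 1.08 (SE 0.33, edgeR adjusted p = 0.0169).

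**Figure D2:**
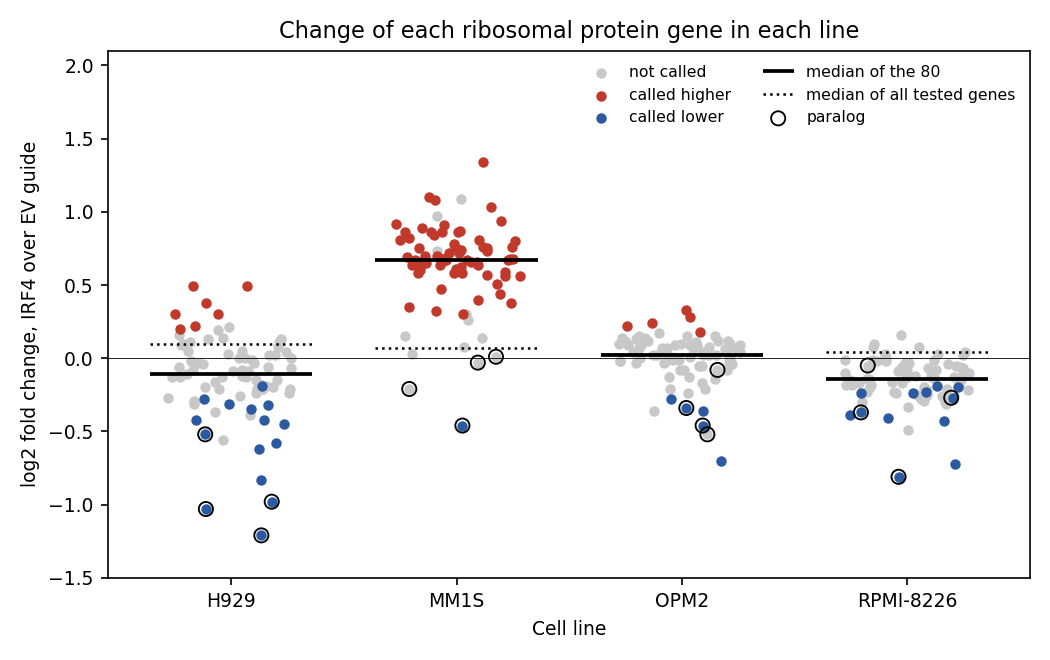
Log2 fold change of IRF4 guide over EV guide (y axis) for each of the 80 genes (points) in each line (x axis), coloured by the edgeR call; the solid line is the members' median, the dotted line the median of all tested genes, and rings mark the 4 paralogs. In MM1S the median is 0.67, while it is -0.11 in H929, 0.02 in OPM2 and -0.14 in RPMI-8226.

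By role, members of each structural group rose in MM1S, as did most of the family (65 of 80). All 3 stalk proteins, which recruit the GTPase translation factors, rose, RPLP0 by 0.78, RPLP1 by 0.70 and RPLP2 by 0.65 on the log2 scale. RPL5 and RPL11, which carry 5S rRNA and can bind the ubiquitin ligase MDM2, rose by 0.57 and 0.75. RPL3, RPL8 and RPL10, near the peptidyl transferase centre, rose by 0.92, 0.51 and 0.82. Of 8 proteins that line the peptide tunnel or its exit, 6 rose, among them RPL4 (0.68) and RPL19 (0.64). RPL17 (log2 fold change 0.14) and RPL39 (0.15) did not pass the test. Of 8 small-subunit proteins at mRNA entry, decoding and mRNA exit, 7 rose, among them RPS2 (0.91), RPS3 (0.76) and RPS28 (0.89), and RPS26 (0.03) did not pass. RPS27A, made as a fusion to ubiquitin, rose by 0.32.

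Of 19 members mutated in Diamond-Blackfan anaemia, an inherited failure of red cell production, 16 rose in MM1S. The whole family, to be set beside each group here, had 65 of 80 members (81.2%) rising, with a median of 0.67. RPS10 (log2 fold change 0.30), RPS26 (0.03) and RPS29 (1.09) did not pass the test. The 6 members listed as altered in cancers, RPL5, RPL10, RPL11, RPL22, RPS14 and RPS15, all rose, RPL22 by 0.40 and RPS14 by 0.69. By subunit, 37 of 49 large-subunit and 28 of 31 small-subunit members rose, with medians of 0.68 and 0.67. By TOP start, 38 of the 46 members with one, 13 of 18 without and 14 of 16 with no promoter entry rose. The medians were 0.67, 0.68 and 0.67. This split rests on the annotated start, so the 18 may include TOP mRNAs whose run begins near it. The 14 members without a call were RPL17, RPL21, RPL22L1, RPL26L1, RPL36, RPL37, RPL37A, RPL38, RPL39, RPL41, RPL7L1, RPS10, RPS26 and RPS29. Among them, RPL37 (0.97), RPL37A (0.73), RPL38 (0.75) and RPS29 had log2 fold changes as large as those of called members.

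In H929, 7 members rose and 15 fell, 8.75% and 18.8% of the 80, where 32.9% of all genes rose and 26.1% fell. The members' median was -0.11 on the log2 scale against 0.10 for all genes, and ran from -0.21 without IRF4 guide replicate 1 to -0.01 without IRF4 guide replicate 2. The largest rises were in RPS28, RPS19 and RPL28, by 0.49, 0.49 and 0.38, and RPL13 and RPS9 also rose. RPS19, a small-subunit protein and the gene most often mutated in Diamond-Blackfan anaemia, was at 2040, 1560 and 1810 CPM with the IRF4 guide and 1370, 1090 and 1400 CPM with the EV guide. All 3 values with the IRF4 guide were above the EV values (edgeR adjusted p = 0.00208). The largest falls were in RPL22L1, RPL39L and RPL7L1, described below. RPL5 (-0.42), RPL9 (-0.42), RPS24 (-0.45) and RPS3A (-0.32), which each rose in MM1S, fell here. With a replicate block within each line 11 members rose and 33 fell in H929, beside 5707 and 4632 of all 16468 genes. The count of rising members in H929 was 4 without IRF4 guide replicate 1, without IRF4 guide replicate 3 or without EV replicate 1.

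In OPM2, 5 members rose and 5 fell, 6.25% each, where 23.2% of all genes rose and 20.2% fell. The members' median was 0.02 against 0.03 for all genes, and ran from -0.06 without IRF4 guide replicate 1 to 0.12 without EV replicate 1. In OPM2 each of the 3 pairs of libraries with the same replicate number deviated together. The correlation was 0.144 to 0.183 over all genes and 0.497 to 0.831 over the members. With a replicate block within each line 9 members rose and 8 fell, beside 4242 and 3849 of all 16468 genes. RPL13A rose by 0.33, RPL3 by 0.28 and RPL22 by 0.24 on the log2 scale, and RPL15 and RPLP0 also rose. RPL13A was at 1350, 1030 and 1190 CPM against 1060, 790 and 990 CPM, so the groups overlapped (edgeR adjusted p = 0.0453). RPS26 fell by 0.70, RPL39L by 0.46 and RPL41 by 0.36, and RPL7L1 and RPL17 also fell. These small counts moved with single libraries. The count of rises was 2 without IRF4 guide replicate 1, EV replicate 2 or EV replicate 3, and the count of falls was 3 without IRF4 guide replicate 3, EV replicate 1 or EV replicate 3. It was 3 for the rises without H929 IRF4 guide replicate 3, MM1S IRF4 guide replicate 2 or RPMI-8226 EV replicate 2, and 3 for the falls without RPMI-8226 IRF4 guide replicate 3.

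In RPMI-8226 edgeR called 0 members higher, with 0 at an unadjusted p under 0.05 in that direction, 0 by DESeq2 and 2 by limma on the deposited log2 RPKM. It called 12 lower (15% of the 80), a share near the background, as 14.7% of all genes fell and 19.2% rose. With a replicate block shared by the lines 29 members fell, beside 2939 of all 16468 genes. Where the block was fitted separately for every line 35 members fell, beside 3069 of all genes. In both block fits the members' share of falls was above that of all genes. The members' median was -0.14 against 0.04 for all genes, and ran from -0.26 without IRF4 guide replicate 1 to -0.09 without IRF4 guide replicate 2. In the full set 9 of 80 members had a positive log2 fold change. The largest falls were in RPL22L1 (-0.81), RPS26 (-0.72) and RPL9 (-0.43). RPL9, a large-subunit protein, was at 19, 15.3 and 17.2 CPM with the IRF4 guide and 23.7, 22.1 and 23.4 CPM with the EV guide, with no overlap (edgeR adjusted p = 0.00481). RPS2, RPS7, RPS15, RPL5, RPL8, RPL9, RPL13 and RPL18 fell here and rose in MM1S. The falls of RPL13 (edgeR adjusted p = 0.0495, groups overlapping) and RPL5 (edgeR adjusted p = 0.0475) were close to the limit. Of the 12 falls, 5 held in every alternative fit and without each library in turn. The count of falls was 6 without IRF4 guide replicate 3 and 7 without EV replicate 1.

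The effect of the IRF4 guide differed between the 4 lines in 63 of 80 members (78.8%) by edgeR's F test with 3 degrees of freedom, against 48.0% of all genes. Without MM1S EV replicate 2 the count was 44. The smallest p-values were those of RPS2, RPL18, RPL7L1, RPL13, RPL5, RPL29, RPS28 and RPL4. RPS2 (chr16:1962058-1964826), at the mRNA entry site, was at 301, 304 and 268 CPM with the IRF4 guide and 157 and 153 CPM with the EV guide in MM1S. In RPMI-8226 it went the other way, at 419, 429 and 370 CPM against 484, 487 and 463 CPM. Its log2 fold changes in H929, MM1S, OPM2 and RPMI-8226 were -0.02, 0.91, 0.04 and -0.24 (edgeR adjusted p of the difference = 2.3e-08).

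RPL18, a large-subunit protein, had log2 fold changes of 0.10, 0.81, 0.06 and -0.23 in H929, MM1S, OPM2 and RPMI-8226. Those of RPL13 were 0.20, 0.80, 0.06 and -0.19 in the same order. RPL29 gave 0.13, 0.68, 0.01 and -0.14. In all 3 of these the largest value was that of MM1S. RPL5 gave -0.42, 0.57, 0.10 and -0.20, and RPL4, which lines the peptide tunnel, -0.19, 0.68, 0.17 and -0.08. RPS28, at the mRNA exit, gave 0.49, 0.89, 0.09 and -0.23. RPL7L1 differed in another way, with -0.98, 0.01, -0.34 and -0.37: it fell in H929, OPM2 and RPMI-8226 and did not pass the test in MM1S.

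MM1S was therefore set against the mean of the other 3 lines, a contrast chosen after these values were seen. The effect of the IRF4 guide was higher in MM1S in 67 members and lower in 0 (0 also at an unadjusted p under 0.05 by edgeR; no other tool was run on it), against 10.3% and 9.83% of all genes. The members' median of this difference was 0.75 against 0.02 for all genes. Without MM1S EV replicate 2 the 67 became 40. With the EV guide, MM1S was below the mean of the other lines in 44 members and above it in 5, with a median of -0.45, where 27.4% of all genes were lower and 32.8% higher. With the IRF4 guide, MM1S was above the mean of the others in 40 members and below it in 11, with a median of 0.29, where 37.0% of all genes were higher and 30.9% lower.

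MYC moved with this difference between lines. Its level went from 421 ± 21.8 CPM with the EV guide to 178 ± 14.4 CPM with the IRF4 guide in H929 (SD, n = 3), from 468 ± 60.1 to 236 ± 42.7 CPM in OPM2 and from 1150 ± 41 to 601 ± 29 CPM in RPMI-8226. In MM1S it went up, from 569 ± 24.7 (n = 2) to 758 ± 52.4 CPM. The log2 fold changes were -1.24, -0.99 and -0.94 in H929, OPM2 and RPMI-8226 and 0.42 in MM1S, and all 4 were called by edgeR. The part of MYC in the ribosomal protein change was not tested. Depth also differed in MM1S: the IRF4 guide libraries held 28486960, 9653222 and 6907390 counts and the EV libraries 9366370 and 8662035. With replicates 2 and 3 alone, and so without the deepest MM1S library, 62 members rose in MM1S with a median of 0.59.

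On the average of the 4 lines with equal weights, 31 members rose and 7 fell (38.8% and 8.75%), against 32.6% and 25.1% of all genes. The members' median was 0.12 against 0.11 for all genes, so the median and the share of rises were both near the background. Among the largest rises were RPL13A (0.49), RPL28 (0.37), RPL3 (0.35), RPS19 (0.33), RPS27 (0.32), RPS28 (0.31) and RPL12 (0.28). Each of these also rose in MM1S, and RPS27 and RPL12 passed the test in no other line. In H929, MM1S, OPM2 and RPMI-8226 RPS27 gave 0.11, 1.10, -0.01 and 0.08, and RPL12 0.05, 0.94, 0.15 and -0.01. RPL3 (chr22:39312882-39319623) was at 1940, 1860 and 1910 CPM against 987 and 1020 CPM in MM1S and at 1570, 1380 and 1450 CPM against 1290, 1160 and 1190 CPM in OPM2, with no overlap in either line. In H929 and RPMI-8226 its groups overlapped. No member was called the same way in all 4 lines. There were 12 members that rose in 2 lines, 4 that fell in 3, 14 that rose in 1 line and fell in another, and 8 with no call in any line.

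The 7 members that fell on the average, where 25.1% of all genes fell, were RPL22L1, RPL39L, RPS26, RPL7L1, RPL17, RPL26L1 and RPL41. Of these, 4 are all of the paralogs among the members, each encoded by a separate gene that resembles a core ribosomal protein. The paralogs had low levels, with a median RPKM of 10.6 for RPL22L1, 28 for RPL39L, 33.2 for RPL7L1 and 16 for RPL26L1. Of other members with low levels, RPS27 (24.2) rose on the average, and RPL21 (5.0), RPS10 (9.95) and RPS29 (14.3) had no call there. Whether the falls go with being a paralog or with a low level was not tested. RPL22L1 (chr3:170864875-170870195) is the paralog of RPL22. It was at 11.6, 12.3 and 12.6 CPM with the IRF4 guide and 29.5, 32.4 and 23.7 CPM with the EV guide in H929. In RPMI-8226 it was at 21.5, 27.1 and 17.5 CPM against 38.8, 46.3 and 29.6 CPM. There was no overlap in either line, and in MM1S the EV values of 21.3 and 21.6 CPM lay inside the range of the IRF4 guide values (26.3, 18.5 and 16.2 CPM). Its log2 fold changes were -1.21, -0.03, -0.52 and -0.81 in H929, MM1S, OPM2 and RPMI-8226, and -0.64 on the average (SE 0.11, edgeR adjusted p = 3.9e-05). RPL22 itself gave -0.08, 0.40, 0.24 and -0.02 and rose in MM1S and OPM2.

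RPL39L (chr3:187120948-187139496), the paralog of RPL39 that is enriched in the male germ line, was at 11, 8.45 and 10.7 CPM against 23.6, 19.1 and 19.8 CPM in H929. It was at 18.6, 16.4 and 14.7 CPM against 21.5 and 25 CPM in MM1S, the single member that fell in this line. That call was lost without MM1S IRF4 guide replicate 2, IRF4 guide replicate 3 or EV replicate 3. Its log2 fold changes were -1.03, -0.46, -0.46 and -0.05 in the same order of lines. RPL7L1 (chr6:42879616-42889900), a relative of RPL7 that acts in pre-ribosome assembly, was at 111, 111 and 113 CPM against 229, 234 and 198 CPM in H929. It was at 154, 153 and 152 CPM against 201, 213 and 182 CPM in RPMI-8226 and at 136, 129 and 139 CPM against 132 and 135 CPM in MM1S. RPL26L1, the paralog of RPL26, fell in H929 by 0.52, and its changes elsewhere (-0.21, -0.08 and -0.27) did not pass the test.

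Core members fell as well. Those named here are among the members with low levels, with a median RPKM of 7.85 for RPS26, 18.5 for RPL17 and 34.1 for RPL41. Whether their reads were counted in full was not tested. RPS26 (chr12:56041918-56044697), which contacts the mRNA at its exit, was at 7.79, 9.01 and 8.89 CPM with the IRF4 guide and 13.9, 13.6 and 15.1 CPM with the EV guide in RPMI-8226. In OPM2 it was at 2.80, 2.29 and 3.03 CPM against 4.90, 3.56 and 4.45 CPM. Neither line had an overlap. It fell by 0.58 in H929, 0.70 in OPM2 and 0.72 in RPMI-8226, and its log2 fold change in MM1S was 0.03. RPL17, at the tunnel exit, fell by 0.83, 0.28 and 0.41 in H929, OPM2 and RPMI-8226. RPL41, the smallest ribosomal protein, fell by 0.62 in H929 and 0.36 in OPM2.

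**Figure D3:**
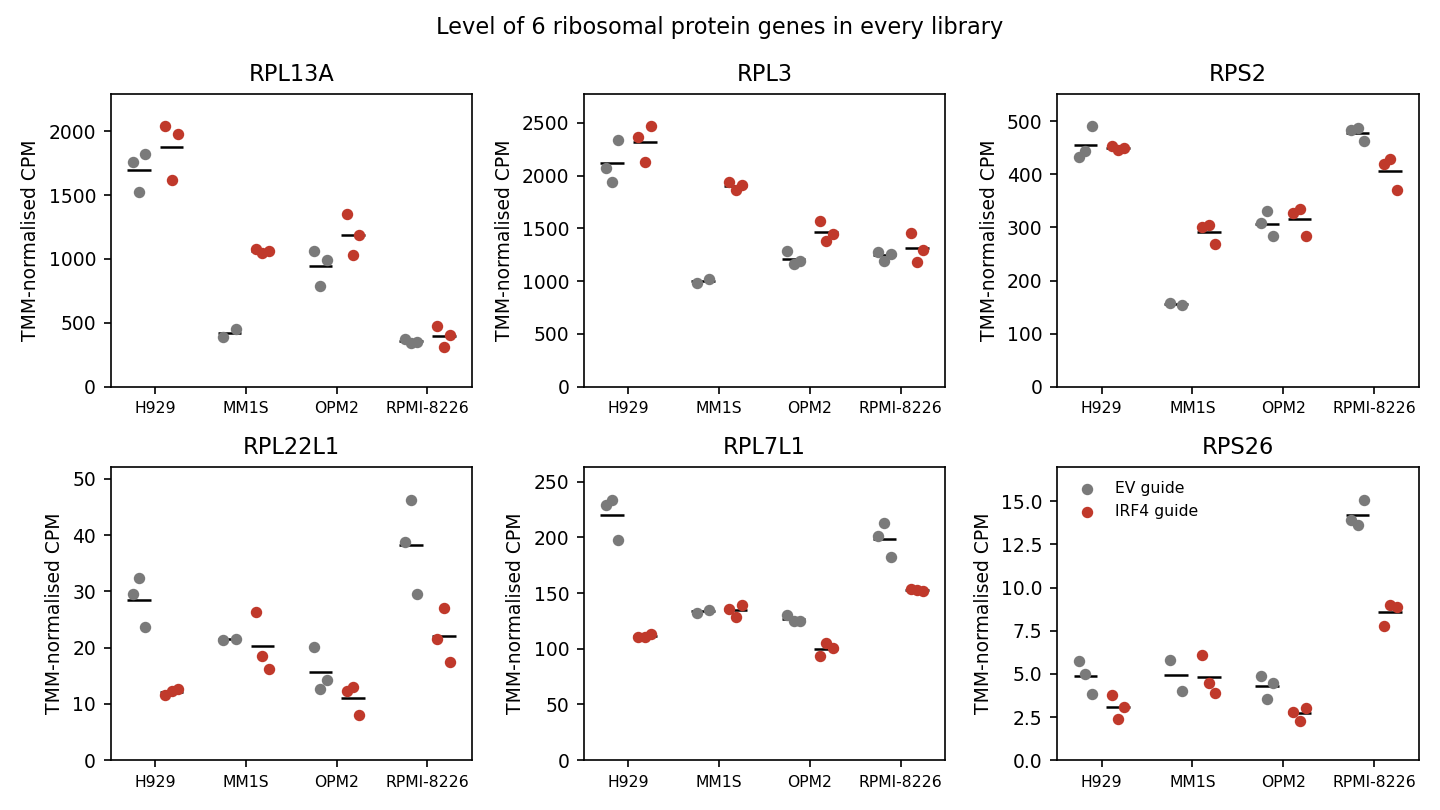
Level (TMM-normalised CPM, y axis, from 0) of 6 ribosomal protein genes in each library (points) by line (x axis) and guide, with group means as lines. RPL13A, RPL3 and RPS2 separate by guide in MM1S, while RPL22L1, RPL7L1 and RPS26 are lower with the IRF4 guide in RPMI-8226 and differ by at most 0.03 (log2 fold change) in MM1S.

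The lines differed before any IRF4 guide. With the EV guide, 74 of 80 members (92.5%) differed between the 4 lines by edgeR's F test, close to the 93.1% of all genes. Among the 6 members without a call were RPL37, RPL38, RPS15A, RPS27A and RPS29. By group mean, H929 was the highest line in 56 members and MM1S the lowest in 34, OPM2 in 28, RPMI-8226 in 16 and H929 in 2. With the IRF4 guide H929 and MM1S were each the highest in 32 members, and MM1S was the lowest in 6. RPL10, near the peptidyl transferase centre, was at 1590, 1470 and 1620 CPM in H929, 447 and 477 CPM in MM1S, 720, 659 and 645 CPM in OPM2 and 640, 600 and 602 CPM in RPMI-8226 (edgeR adjusted p = 9.41e-18). The H929 values stood apart from those of the other lines.

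RPL9 was at 111, 97.2 and 106 CPM in H929 and 83.4, 75.5 and 72.4 CPM in OPM2. It was at 20.8 and 22.8 CPM in MM1S and 23.7, 22.1 and 23.4 CPM in RPMI-8226, so those last 2 lines overlapped and lay well below the others (edgeR adjusted p = 2.44e-18). RPL17 ordered the lines differently, with 55.8, 50.6 and 48.7 CPM in H929, 32.5, 35.4 and 34.3 CPM in RPMI-8226, 15.4 and 17.3 CPM in MM1S and 13.8, 12.1 and 13.7 CPM in OPM2. RPL8 was highest in RPMI-8226, at 1820, 1770 and 1810 CPM, and lowest in OPM2, at 788, 754 and 775 CPM. RPL13, RPS2 and RPL27A were also among the members with the smallest p. RPL13 and RPS2 were lowest in MM1S (533 and 604 CPM, 157 and 153 CPM), and RPL27A was lowest in RPMI-8226 (253, 253 and 252 CPM).

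**Figure D4:**
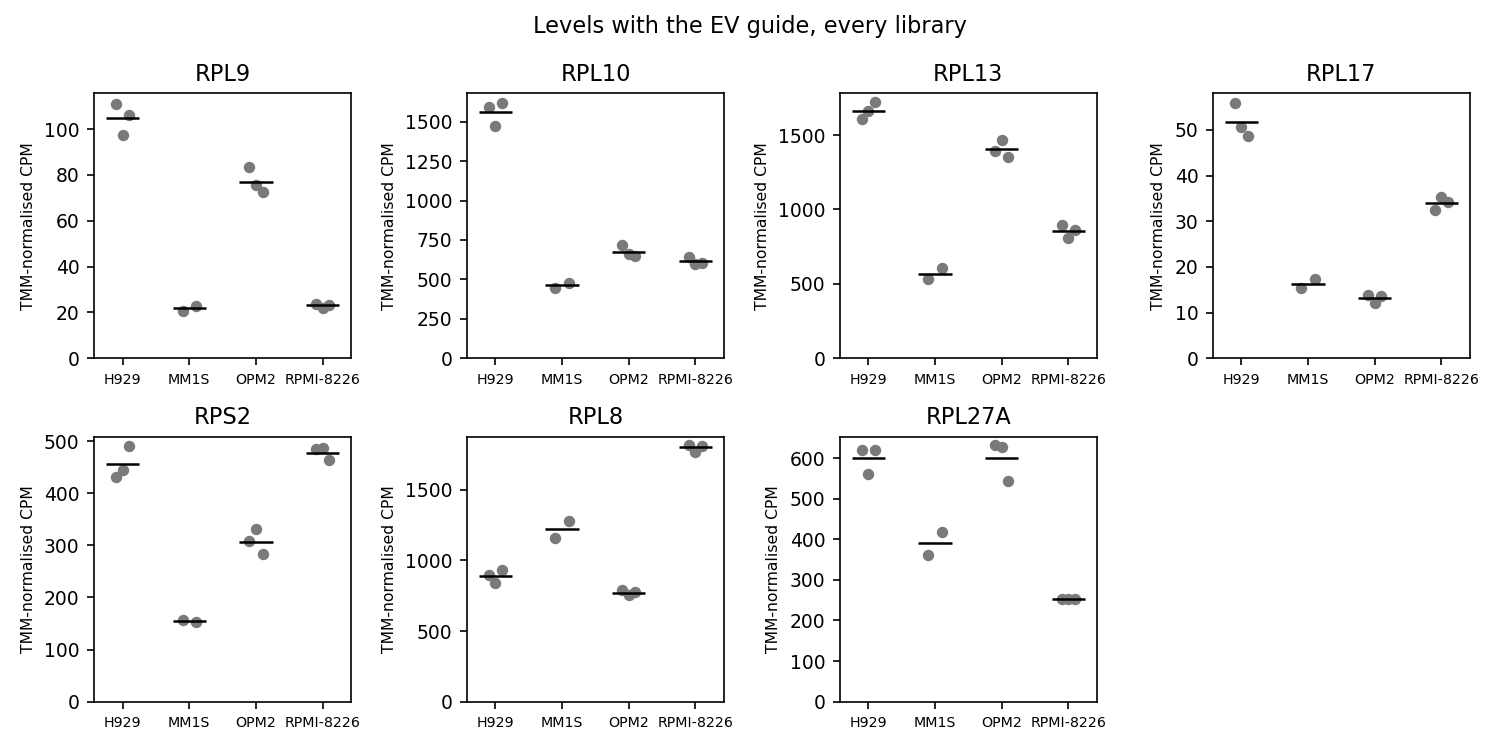
Level (TMM-normalised CPM, y axis, from 0) with the EV guide in each library (points) of each line (x axis) for 7 members among those with the smallest p of a difference between lines, with group means as lines. MM1S is the lowest line for RPL10, RPL13 and RPS2, and RPL8 is highest in RPMI-8226.

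Per gene length (the median over libraries of the deposited log2 RPKM, turned back to RPKM), RPLP1 was highest at 2860, and among the next were RPLP2 at 1830 and RPS6, the substrate of the S6 kinases, at 1710. The lowest were RPL21 at 5.0, RPS26 at 7.85, RPS10 at 9.95 and RPL22L1 at 10.6. GENCODE version 29 names 1126 pseudogenes after 76 of the members, whose reads may not be told apart from theirs. Over the 80 members the number of pseudogenes had a Spearman rho of -0.281 with the log2 RPKM. In the reference annotation 18 members overlap another gene. The read-through genes RPL17-C18orf32 and RPS10-NUDT3, which share exons with RPL17 and RPS10, had 0 counts in every library. Levels and changes of such members, RPL17, RPL21, RPS10 and RPS26 among them, are uncertain.

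The family was set beside genes that make, carry or resemble it. Among ribosomal proteins or relatives that are not members, FAU, RACK1 and RPS27L rose in MM1S, by 0.48, 0.68 and 0.93. RACK1 fell in H929 (log2 fold change -0.36) and RPMI-8226 (-0.30). RPL36AL, the paralog of RPL36A, fell in OPM2 and RPMI-8226 and by 0.32 on the average. Of 18 other TOP mRNAs, most of which encode elongation or initiation factors, 15 rose and 0 fell in MM1S, with a median of 0.44. Those that rose included the elongation factors EEF2 (0.95) and EEF1A1 (0.74) and the initiation factors EIF3F (0.90) and EIF3L (0.78). HNRNPA1 (0.16) and NAP1L1 (-0.05), which are not translation factors, and EIF2S3 (0) did not pass the test. In H929 3 rose and 9 fell, in OPM2 7 rose and 2 fell, and in RPMI-8226 2 rose and 2 fell. Of all genes 32.9% rose and 26.1% fell in H929, and 19.4% rose and 15.2% fell in MM1S. The shares were 23.2% and 20.2% in OPM2 and 19.2% and 14.7% in RPMI-8226, so the RPMI-8226 counts were below the background. TPT1 rose in each line, by 0.26, 0.38, 0.34 and 0.24.

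Genes that build ribosomes mostly fell on the average of the 4 lines. Of 28 genes of pre-rRNA processing and subunit assembly, 27 fell in H929, 27 in OPM2, 24 in RPMI-8226 and 11 in MM1S, where 1 rose. The medians were -1, -0.64, -0.48 and -0.24. Of all genes 26.1%, 20.2%, 14.7% and 15.2% fell in these lines, in the same order, and 25.1% on the average. All 28 fell on the average, among them the nucleolar proteins NOLC1 (-0.81) and NOP56 (-0.86) and the assembly factors WDR12 (-0.83) and TSR1 (-0.72). In MM1S these 4 fell too, by 0.36, 0.51, 0.53 and 0.46. Of 15 genes of RNA polymerase I and its factors, 14 fell and 1 rose on the average, with POLR1B at -0.62, POLR1E at -0.71, POLR1C at -0.51 and TWISTNB at -0.57. In MM1S 3 rose and 4 fell, where 19.4% of all genes rose and 15.2% fell, so the rises were near the background. Of 14 chaperones and importers of ribosomal proteins 13 fell on the average, among them the importins IPO5 (-0.72) and IPO7 (-0.60), the 5S RNP factor RPF2 (-0.93) and the RPL3 chaperone GRWD1 (-0.77). In MM1S 8 fell and 0 rose, with a median of -0.41, beside the members' 0.67.

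**Figure D5:**
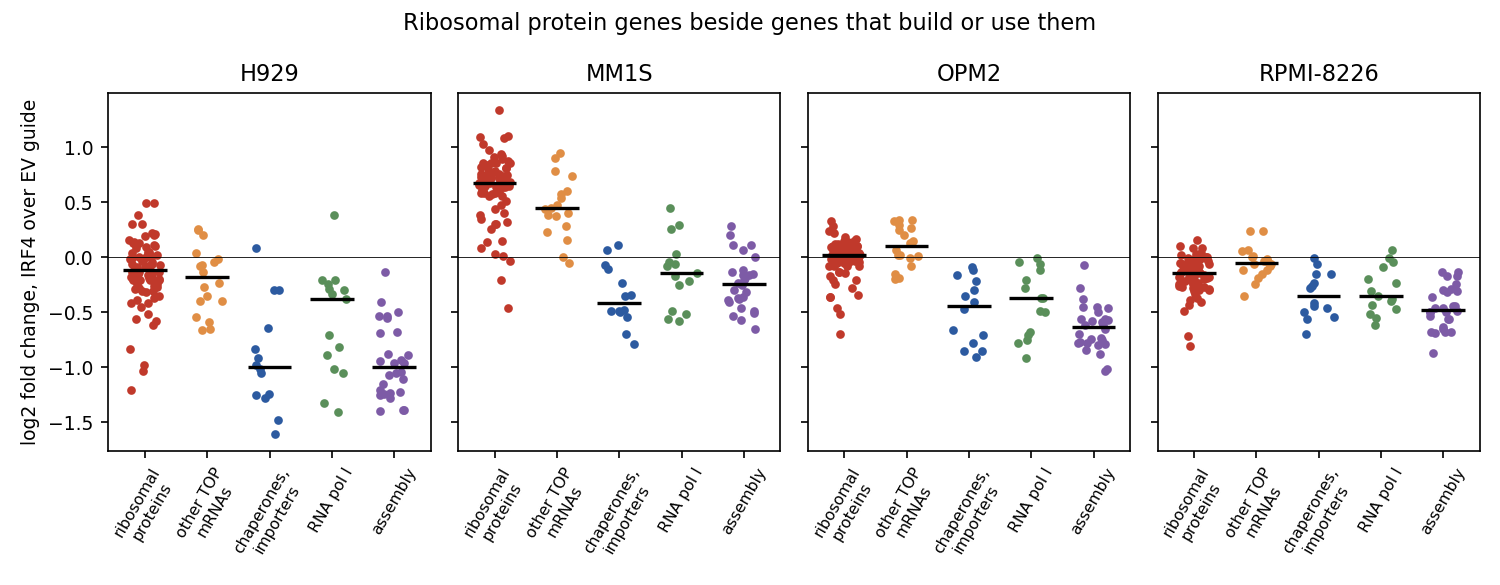
Log2 fold change of IRF4 guide over EV guide (y axis) of each gene (points) in the 80 ribosomal protein genes, 18 other TOP mRNAs, 14 chaperones and importers, 15 RNA polymerase I genes and 28 assembly genes (x axis), by line, with medians as lines. In MM1S the medians are 0.67, 0.44, -0.41, -0.14 and -0.24 in that order.

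Some genes that control these mRNAs or cell growth also changed. Of 12 regulators of TOP mRNA translation, 3 rose and 6 fell on the average, where 32.6% of all genes rose and 25.1% fell. In MM1S 1 rose and 2 fell, where 19.4% of all genes rose and 15.2% fell, so these MM1S counts were near or below the background. The cap-binding protein EIF4E fell by 0.62, its inhibitor EIF4EBP1 by 0.89 and LARP1 by 0.29, and TSC2, which restrains mTOR, rose by 0.42. In MM1S EIF4E fell by 0.51 and TSC2 rose by 0.50, and LARP1 (0.02) did not pass the test. The cell cycle inhibitor CDKN1A rose by 1.21, 2.05 and 0.79 in H929, MM1S and OPM2 and fell by 0.71 in RPMI-8226. MDM2, which free 5S RNP can bind, fell by 0.25 and MDM4 rose by 0.20 on the average. Among partners and antagonists of MYC, MXD4 rose by 2.00, 1.77, 1.28 and 1.02 in H929, MM1S, OPM2 and RPMI-8226, MXD1 by 1.22, 0.63, 1.26 and 0.60, and MXI1 by 0.45 on the average.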

How the data were processed

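The authors deposited a table of raw counts per gene for 23 libraries and log2 RPKM values per library for 16220 genes, in which all 80 members have a value. Per the submitters' processing notes, Subread, featureCounts and limma were used on GRCh38 (hg38). Versions, strand setting and treatment of multiply mapped reads are not given in the sources used here. Rows without a symbol (490) stayed in the fit.

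These were fitted with edgeR 4.0.16 (R 4.3.3), using filterByExpr by group, TMM scaling and a robust quasi-likelihood fit with 8 group means over all 23 libraries. Contrasts were the IRF4 minus EV guide in each line, their average, and F tests among lines. Benjamini-Hochberg adjustment ran over 16468 genes. An SE is the log2 fold change over the square root of F. Group shares and CPM are given with the SD over libraries. The fit was tested on simulated data.

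Alternatives were other scaling factors, no filter, DESeq2 1.42.0, limma 3.58.1 on the log2 RPKM, each line alone, a replicate block, each library left out and, added later, thinned libraries and replicates 2 and 3 only. Named genes were those called in all lines, the largest changes on the average (8 each way) and per line (3 each way), the 8 smallest p between lines and with the EV guide, the 4 highest and lowest levels, role groups and up to 4 genes per list. Other genes were named after their values were seen, and a few that the rule names are not reported here. The members and lists were chosen with earlier results of these data known. Depth was 6907390 to 28486960 counts per library. Libraries outside the 23 were not analysed here. Coordinates and starts come from RefSeq (GRCh38.p14), and pseudogene names from GENCODE version 29.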

Additional observations from a re-analysis of the deposited data

Results flagged for a closer look

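The effect of the IRF4 guide differed between the 4 lines in 63 ribosomal protein genes by the test of the difference itself (edgeR F test). The 8 smallest adjusted p-values were 2.3e-08 for RPS2, 6.42e-08 for RPL18, 1.12e-07 for RPL7L1, 2.53e-07 for RPL13, 5.01e-07 for RPL5, 9.58e-07 for RPL29, 1.06e-06 for RPS28 and 1.22e-06 for RPL4. In 7 of these the MM1S value was the highest and called higher. RPL7L1 was the exception, with falls in the other lines and a log2 fold change of 0.01 in MM1S.

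A signal also appeared in rows outside the family, those of 32 pseudogenes named after ribosomal proteins. In MM1S they took 0.14 to 0.149% of counts with the IRF4 guide and 0.0718 to 0.0799% with the EV guide, a ratio of the means of 1.89. The ratio was 1.13 in H929, 1.23 in OPM2 and 1.02 in RPMI-8226. RPL13AP5, named after RPL13A, held 45.2 to 77.1% of these counts, and without it the ratio in MM1S was 1.37. Of 23 pseudogenes tested, 9 were called higher and 1 lower in MM1S, with a median log2 fold change of 0.56. Of all genes 19.4% were called higher and 15.2% lower there. Among the 9 were RPL13AP5, RPL13AP6, RPL13AP20 and RPL13AP3, all named after RPL13A, and RPS16P5, with a minimum of 0 counts. Whether these reads come from the pseudogenes or from their parent genes was not tested.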

How the results depend on the processing

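The MM1S count of 65 rising members lay between 62 and 70 in the alternatives other than leaving out a library. Without each library in turn 41 of the 66 MM1S calls held, 15 of 22 in H929, 5 of 10 in OPM2 and 6 of 12 in RPMI-8226. The counts of the other lines moved more. With upper quartile factors H929 had 12 rises and OPM2 9 rises and 3 falls. With TMM factors computed without the members and their pseudogenes OPM2 had 3 rises. Without the count filter H929 had 26 falls, RPMI-8226 24 falls and the average 47 rises. With limma on log2 RPKM OPM2 had 22 rises and RPMI-8226 2 rises and 7 falls, and RACK1 on the average reversed to 0.09. There the median of all genes moved by -0.175 in H929, -0.107 in OPM2 and -0.147 on the average, and the share of higher calls went from 55.7% to 45.6% in H929 and from 56.5% to 46.2% on the average. With each line fitted alone H929 had 4 rises and 29 falls and OPM2 3 falls. With replicates 2 and 3 only H929 had 4 rises and OPM2 1 rise and 2 falls. The cause of these shifts was not tested.

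The labels do not state pairing by replicate number. Over all genes the deviations of same-number libraries correlated weakly (11 pairs, 0.0256 to 0.183), though 21 of 23 libraries correlated best with their own number. The deposited column names number libraries of a replicate consecutively. Over the members alone the correlation was 0.77, 0.8 and -0.0527 in H929 and 0.831, 0.825 and 0.497 in OPM2 (replicates 1 to 3). It was 0.597, 0.193 and 0.0888 in RPMI-8226 and 0.275 and -0.172 in MM1S (replicates 2 and 3). The main fit held no replicate block. With a replicate block shared by the lines H929 had 31 falls, OPM2 8 rises and RPMI-8226 29 falls. Of all 16468 genes 4568, 4204 and 2939 were called in these ways. With the block within each line H929 had 11 rises and 33 falls, MM1S 2 falls, OPM2 9 rises and 8 falls, and RPMI-8226 35 falls.

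Leaving out each library in turn, the counts ranged from 4 to 9 rises and 11 to 20 falls in H929, 42 to 66 rises and 0 to 1 falls in MM1S, 2 to 5 rises and 3 to 6 falls in OPM2 and 6 to 16 falls in RPMI-8226. The MM1S effect exceeded the other lines' in 40 to 69 members. Where 1 MM1S EV library was left, it was assumed to vary like the other groups. Depth limits the low members: RPL21, RPS26 and RPS27 had as few as 15, 20 and 26 counts.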

Other observations

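Counts in large-subunit genes over counts in small-subunit genes were 1.67 to 1.70 in RPMI-8226 libraries over both guides and 1.34 to 1.43 in OPM2, with H929 at 1.45 to 1.56 and MM1S at 1.41 to 1.49. RPMI-8226 alone did not overlap the other lines, and no test was run. Across the 80 genes, which are not independent replicates, the log2 fold changes in MM1S had a Pearson r of 0.731 with those in H929, 0.568 with OPM2 and 0.452 with RPMI-8226. Members share the libraries of each line and, in part, their level: the Spearman rho of the MM1S change with the median log2 RPKM was 0.306.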
